A study of Homo sapiens with 6 samples.

Results

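The genes of 10 enzymes that carry glucose to lactate were followed in U87MG cells: HK2, GPI, PFKP, ALDOA, TPI1, GAPDH, PGK1, ENO1, PKM and LDHA. They were taken by symbol from the 17687 genes that the arrays measured through a probe set with a single listed symbol, and a symbol with several probe sets was represented by that of the highest mean value over the 6 arrays. Each of the 10 genes had 1 probe set, so all 10 were measured. The genes were picked with earlier results of the same arrays known, so the counts and medians over them are descriptions and carry no test.

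Glycolysis turns glucose into pyruvate in the cytosol. Its first steps use ATP to phosphorylate the sugar, aldolase then splits it into triose phosphates, and the later steps return ATP. Lactate dehydrogenase reduces pyruvate to lactate, which regenerates the NAD+ that the GAPDH step needs, and many tumor cells, glioblastoma among them, run this route to lactate even when oxygen is present. Most steps can be carried out by several enzymes encoded by different genes (isoforms), and tumors commonly use HK2, PKM and LDHA at the hexokinase, pyruvate kinase and lactate dehydrogenase steps.

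U87MG is an established human glioblastoma line, and it was the only line on these arrays. In the group labelled P-bi-TAT, 3 arrays held RNA of cells exposed to 30 µM of the compound for 24 h. P-bi-TAT is a synthetic molecule that carries a pair of units derived from tetrac, a thyroid hormone analogue, and is directed at the hormone site of integrin αvβ3. In the group labelled UNTREATED, 3 arrays held RNA of cells that received phosphate-buffered saline over the same hours. Both groups grew in RPMI with serum and, per the study's methods, were kept in low serum before exposure. Whether the replicates were separate cultures is not given in the labels, and the p-values take in no more than the array-to-array spread seen here, which may be technical. The arrays read the RNA of whole cultures, so a change in some cells and a smaller one in all cells cannot be told apart. Of the markers read to check the label, 4 of 5 measured mesenchymal glioma genes were above the negative control probe sets in both groups, VIM, FN1, CD44 and TNC but not CHI3L1. Of 6 astrocyte and glioma genes 4 were, S100B, AQP4, SOX2 and NES but not GFAP or OLIG2, and S100B and AQP4 differed by −1.16 and −1.55 on the log2 scale, past 1.5-fold with an unadjusted limma p under 0.05. Of markers of other cell types, 2 of 4 immune genes were above the negative controls in both groups (CD68 and CD3E, not PTPRC or CD14). So were 1 of 3 endothelial genes (VWF), 0 of 3 epithelial, 3 of 3 neuronal, 2 of 3 muscle and 2 of 3 liver genes. The level used is an averaged median of the negative controls, so passing it does not show expression. Of all 17687 genes, 11885 outside the gene lists used here also passed it in both groups, and the counts are to be read beside that. The liver genes ALB and APOA1 had untreated means of 3.93 and 3.85, against an untreated level of 3.81.

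The first P-bi-TAT array (replicate 1) differed from the other 5. The median deposited log2 value of its gene probe sets was 3.52, against 4.85 in each untreated array and 4.73 and 4.76 in P-bi-TAT replicates 2 and 3. Its correlation with the other arrays over genes was 0.864 to 0.909, while replicates 2 and 3 correlated at 0.987. Its shift depended on brightness, with a median shift from the untreated mean of −2.68 among probe sets of log2 8 to 10 and of 0.77 among the 29 probe sets of log2 18 to 21. Replicates 2 and 3 shifted by 0.34 and 0.38 in the first of these ranges and by 0.24 and 0.20 in the second. The values of replicate 1 also held only 4527 distinct numbers over all probe sets, against 23072 to 23438 in the other arrays, so its values and ranks carry many ties. The groups differed in controls too, in all arrays: the median of the spike-in probe sets was 12.53, 12.33 and 12.04 in untreated replicates 1 to 3 and 10.79, 10.60 and 10.34 after P-bi-TAT, and that of the negative controls 3.67 to 3.98 against 3.20 to 3.27. Their part in the differences below was not tested. The difference of each of the 10 enzymes is given with and without replicate 1. The deposited log2 values reach 19.93, past the 16 that a 16-bit scanner can record, so the scale is not that of the scanner and differences are given in log2 units, not as linear folds.

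**Figure D1:**
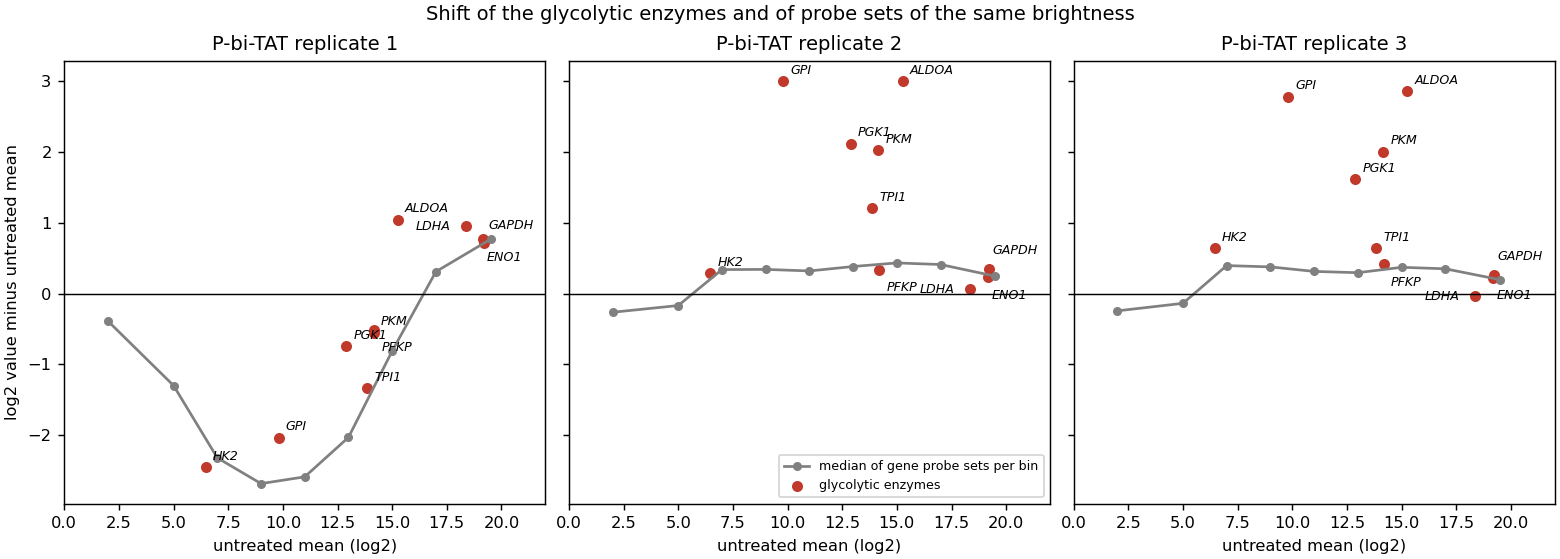
Shift of each P-bi-TAT array from the mean of the 3 untreated arrays (y axis, log2) against brightness (x axis, log2 mean of the untreated arrays), as medians over all gene probe sets, with the 10 enzymes as points. Replicate 1 lies below 0 over the middle of the scale (−2.68 at log2 8 to 10) and above 0 at its top (0.77 at log2 18 to 21).

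Among the 10 enzymes, ALDOA, GPI, PKM and PGK1 stood furthest above the untreated arrays in P-bi-TAT replicates 2 and 3, by 1.62 to 3.00 on the log2 scale. In replicate 1 only ALDOA of these 4 was above the untreated mean. HK2, PFKP and TPI1 were above the untreated mean by 0.28 or more in replicates 2 and 3, and the probe sets of GAPDH, ENO1 and LDHA, at the top of the scale, lay within 0.35 of it. Across all 6 arrays, limma's test with Benjamini-Hochberg adjustment over all 21448 gene probe sets called 0 of the 10 enzymes at an adjusted p under 0.05, as it did for 0.0% of all 17687 genes in each direction. At 1.5-fold and an unadjusted p under 0.05, ALDOA was the only one of the 10 called higher and 0 were called lower, beside 0.192% of all genes called higher (34 genes) and 4.98% called lower (880 genes). Without replicate 1 the same limits called 4 of the 10 higher, ALDOA, GPI, PGK1 and PKM, beside 9.26% of all genes, and again 0 lower, beside 5.31%. With quantile normalization, which gives all arrays 1 distribution, the same 4 were called higher, beside 3.82% of all genes, and 0 lower, beside 3.12%. With limma's array weights, which give a deviating array less weight, TPI1 joined these 4, beside 10.9% of all genes called higher, and 0 were called lower, beside 9.58%.

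**Figure D2:**
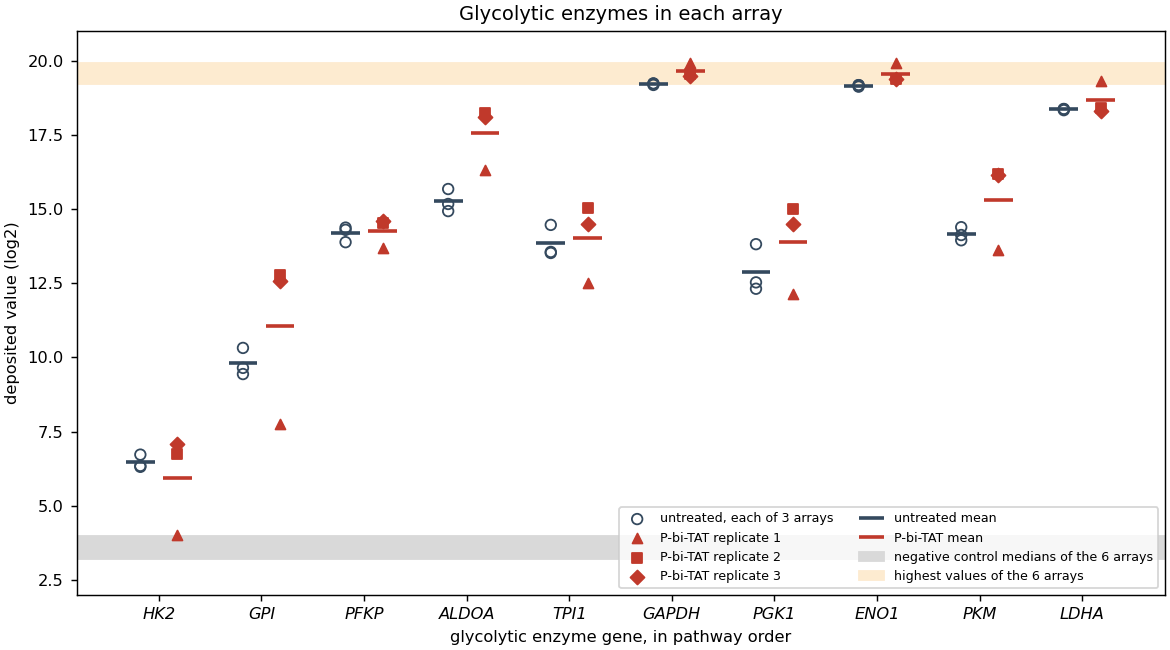
Deposited log2 value (y axis) of the 10 enzymes (x axis, pathway order) in each array, with circles for the 3 untreated arrays, filled symbols for the 3 P-bi-TAT replicates and bars for group means. For ALDOA all P-bi-TAT points lie above the untreated ones (16.31 to 18.26 against 14.94 to 15.68), while for GPI, PGK1 and PKM replicate 1 lies below them and replicates 2 and 3 above.

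Regions upstream of the start were read for the genes of this route because hypoxia is a textbook setting for these genes. ACGTG is a form of the core sequence that hypoxia-inducible factors bind, and other forms of that core were not sought. The motif ACGTG was sought on both strands in the 250 bases before each annotated start in the RefSeq promoter table (build GRCh38.p14), and it overlaps the longer motif CACGTG. All 10 genes matched the table, with 18 windows. The motif stood in 11 of the 18 windows, beside 18.5% of all 35116 windows. CACGTG stood in 4 of the 18, beside 6.34% of all windows. Of the 10 genes, 8 had ACGTG in at least 1 window, ENO1 and PKM having none. The share of all genes with a match in any window was not computed, and a gene with more windows has more places for a match. The first and second windows of ALDOA also overlap. Windows of 3 genes are shown to set that with the highest difference, ALDOA, beside PGK1, also higher in replicates 2 and 3, and LDHA, which was not higher in both of them. They lie at chr16:30064029-30064278, chrX:78103998-78104247 and chr11:18394313-18394562, all on the plus strand, and capitals mark ACGTG read on either strand.
ALDOA: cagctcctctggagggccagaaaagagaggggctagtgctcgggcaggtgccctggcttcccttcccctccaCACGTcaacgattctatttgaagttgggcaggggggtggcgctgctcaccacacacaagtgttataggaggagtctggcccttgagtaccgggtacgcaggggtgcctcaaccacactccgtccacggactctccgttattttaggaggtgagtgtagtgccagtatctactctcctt
PGK1: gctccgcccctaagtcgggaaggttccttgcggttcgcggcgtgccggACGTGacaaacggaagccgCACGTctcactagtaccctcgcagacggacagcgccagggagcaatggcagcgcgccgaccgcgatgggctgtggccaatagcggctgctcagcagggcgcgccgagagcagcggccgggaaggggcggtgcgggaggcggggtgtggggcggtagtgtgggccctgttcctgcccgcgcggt
LDHA: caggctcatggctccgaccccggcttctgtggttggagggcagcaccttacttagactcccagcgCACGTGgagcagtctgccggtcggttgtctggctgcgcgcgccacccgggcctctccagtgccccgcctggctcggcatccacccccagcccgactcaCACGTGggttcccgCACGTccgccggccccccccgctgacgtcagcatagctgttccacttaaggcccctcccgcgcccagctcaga
ALDOA, of whose 3 windows this is the first, had a single match here, 178 bases before its start. PGK1 had 2, at 202 and 183 bases, and LDHA had 5, from 185 to 73 bases before the start. A CACGTG matches on both strands and was counted on each. LDHA held 2 such sites, counted at 185 and 184 and at 87 and 86 bases, besides the match at 73. A match is a description of letters, and binding was not measured here.

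The first 3 steps prepare the sugar. HK2, hexokinase 2, phosphorylates glucose and can bind to the outer face of mitochondria. Its log2 values were 6.72, 6.35 and 6.31 in untreated replicates 1 to 3 and 4.01, 6.75 and 7.10 in the P-bi-TAT replicates. Replicate 1 was far below all other arrays and replicates 2 and 3 were just above all untreated ones. The group means were 6.46 ± 0.23 (SD, n = 3) and 5.95 ± 1.69 (SD, n = 3), a difference of −0.51 (SE 0.83, limma adjusted p = 0.913), and without replicate 1 the difference was 0.46. The direction for HK2 thus turned with that array.

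GPI, glucose-6-phosphate isomerase, turns glucose 6-phosphate into fructose 6-phosphate. Its log2 values were 10.32, 9.44 and 9.65 in untreated cells and 7.77, 12.80 and 12.58 after P-bi-TAT. The untreated arrays lay between the low replicate 1 and the high replicates 2 and 3, so the groups overlapped. The difference was 1.25 (SE 1.31, limma adjusted p = 0.874) with all arrays and 2.89 without replicate 1 (limma adjusted p = 0.136). Among all genes of its own array, GPI ranked 1638, 2511 and 2361 from the top in the untreated arrays and 1650, 642 and 690 after P-bi-TAT. By rank, replicate 1 with its many ties was among the untreated values, and the other two P-bi-TAT arrays placed GPI higher than any of them.

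PFKP, the platelet-type phosphofructokinase, catalyses the committed step of the pathway. It read 14.30, 14.38 and 13.89 (log2) in untreated cells and 13.68, 14.53 and 14.60 after P-bi-TAT. The groups overlapped and their means differed by 0.08 (SE 0.44, limma adjusted p = 0.973), or by 0.37 without replicate 1. The SD was 0.27 in untreated cells and 0.51 after P-bi-TAT, larger than the difference itself.

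ALDOA, aldolase A, splits fructose 1,6-bisphosphate into triose phosphates. It was the enzyme of the 10 with the highest difference. Its log2 values were 15.68, 15.18 and 14.94 in untreated cells and 16.31, 18.26 and 18.12 after P-bi-TAT, with means of 15.26 ± 0.38 and 17.56 ± 1.09 (SD, n = 3 each). Every P-bi-TAT array was above every untreated array, replicate 1 included. The difference was 2.30 (SE 0.62), with an unadjusted limma p of 0.00774, an adjusted p of 0.847 and an exact two-sided permutation p of 0.1, the smallest that 3 against 3 arrays allow. Without replicate 1 it was 2.93 (limma adjusted p = 0.136). Over 18 other ways of processing the difference stayed between 1.95 and 2.95 and met 1.5-fold with an unadjusted p under 0.05 in all 18, while its adjusted p ranged from 0.0393 to 0.999. The low end came from the array weights, with which 0.0396% of all genes were called higher at an adjusted p under 0.05. Within its own array ALDOA ranked 120, 146 and 168 from the top in untreated cells and 75, 36 and 35 after P-bi-TAT.

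TPI1, triosephosphate isomerase, interconverts the triose phosphates that aldolase releases. The untreated arrays gave log2 values of 14.47, 13.52 and 13.56 and the P-bi-TAT arrays 12.52, 15.05 and 14.49. Untreated replicate 1 was almost level with P-bi-TAT replicate 3, and P-bi-TAT replicate 1 was below all other arrays. The difference was 0.17 (SE 0.72, limma adjusted p = 0.968), or 0.92 without P-bi-TAT replicate 1.

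GAPDH, glyceraldehyde-3-phosphate dehydrogenase, couples oxidation of the triose to phosphorylation and reduces NAD+. Its log2 values were 19.24, 19.19 and 19.23 in untreated cells and 19.93, 19.57 and 19.48 after P-bi-TAT. The groups did not overlap, but the probe set stood at the ceiling of the arrays: in P-bi-TAT replicate 1 it shared the highest value of the array with others, 34 probe sets in all, and in the untreated arrays it was within 0.0263 of the highest value. Such readings leave little room to record a change, and that of replicate 1 is only a bound. The difference was 0.44 (SE 0.37, limma adjusted p = 0.869, exact permutation p = 0.1), and 0.31 without replicate 1. The highest value of the array itself moved in the same way, from 19.22 to 19.27 in untreated cells to 19.93, 19.72 and 19.73 after P-bi-TAT. With each array's intensity trend removed (a smooth curve of the array's deviation from the mean of all arrays against brightness), the GAPDH difference was −0.06.

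PGK1, phosphoglycerate kinase 1, makes the first ATP that the pathway returns. Untreated cells gave 13.82, 12.32 and 12.53 (log2) and P-bi-TAT cells 12.14, 15.00 and 14.51. Replicates 2 and 3 were above every untreated array and replicate 1 below every one. The difference was 0.99 (SE 0.84, limma adjusted p = 0.869) and 1.87 without replicate 1 (limma adjusted p = 0.217). Untreated replicate 1 was also apart from the other untreated arrays, which gave PGK1 the widest untreated spread of the 10 enzymes (SD 0.81).

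ENO1, the alpha enolase, forms phosphoenolpyruvate. The 3 untreated arrays read 19.18, 19.13 and 19.18 (log2), and the P-bi-TAT arrays 19.93, 19.40 and 19.39. As with GAPDH, the groups did not overlap and the reading of replicate 1 was the highest value of that array. The difference was 0.41 (SE 0.38, limma adjusted p = 0.870, exact permutation p = 0.1), or 0.23 without replicate 1, and −0.08 with the intensity trend removed.

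PKM, the pyruvate kinase gene of muscle and tumors, yields pyruvate and ATP. On the log2 scale it read 14.39, 13.95 and 14.13 in untreated cells and 13.61, 16.18 and 16.16 after P-bi-TAT. Replicates 2 and 3 were level with each other and above all untreated arrays, and replicate 1 was below them. The difference was 1.16 (SE 0.75, limma adjusted p = 0.847) and 2.01 without replicate 1 (limma adjusted p = 0.151). The M1 and M2 splice forms of PKM share 1 probe set here, so their balance was not measured.

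LDHA, the lactate dehydrogenase subunit that favours lactate formation, closed the set. Its log2 values were 18.38, 18.34 and 18.37 in untreated cells and 19.31, 18.43 and 18.32 after P-bi-TAT. Replicate 1 alone was high, and replicate 3 was just below the untreated arrays. The difference of 0.32 (SE 0.43, limma adjusted p = 0.895) became 0.01 without replicate 1. With quantile normalization it was −0.32. GAPDH, LDHA and PKM also have 65, 6 and 5 pseudogenes named after them in the RefSeq gene table. TPI1 and ENO1 have 4 each, ALDOA and PGK1 2 each, HK2 1, and GPI and PFKP 0. Probes that such copies share cannot be told from the gene's own.

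Set against the untreated mean, 9 of the 10 enzymes were above it in both P-bi-TAT replicates 2 and 3, beside 39.7% of all genes, and LDHA was the exception. With each array's intensity trend removed, 5 were, GPI, ALDOA, TPI1, PGK1 and PKM, beside 39.1% of all genes. The same 9 were above each untreated array in both of these replicates, beside 19.1% of all genes, and 0 were below each untreated array in both, beside 17.9%. In replicate 1 the 4 enzymes above the untreated mean were ALDOA, GAPDH, ENO1 and LDHA, beside 8.44% of all genes, and these were the 4 brightest of the 10. The groups of all 6 arrays did not overlap for 3 enzymes with higher P-bi-TAT values (ALDOA, GAPDH and ENO1), beside 0.758% of all genes, and for 0 with lower values, beside 14.5%. GAPDH and ENO1 stood at the array ceiling, which was itself higher in every P-bi-TAT array, so ALDOA was the 1 enzyme of the 3 read below it. The median difference over the 10 was 0.42 over all arrays, beside −0.43 over all genes, and 0.69 without replicate 1, beside −0.01. It was 0.24 with quantile normalization and 0.26 with the trend removed, beside −0.0025 and −0.01 over all genes, and 0.93 with median centring, beside 0.08. Brightness moved with these numbers: all but HK2 and GPI had an untreated mean of 12 or more, and over all gene probe sets in that range the median shift was −1.58, 0.38 and 0.30 in P-bi-TAT replicates 1 to 3. Its part in the counts above was not tested beyond the removal of the trend.

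After removal of each array's intensity trend, ALDOA was 1.60, 2.43 and 2.46 above the untreated mean in P-bi-TAT replicates 1 to 3. GPI was 0.33, 2.56 and 2.40 above it, PGK1 0.82, 1.59 and 1.22, and PKM 0.56, 1.48 and 1.60. For these 4 genes all 3 replicates then lay above the untreated mean, as they did for TPI1 (0.05, 0.67 and 0.24). The share of all genes above that mean in all 3 replicates was not computed. HK2, PFKP, GAPDH, ENO1 and LDHA had replicates on both sides of the untreated mean. GAPDH, ENO1 and LDHA were below it in both replicates 2 and 3, with LDHA at 0.78, −0.54 and −0.43. The median of the 10 enzymes was 0.44, 0.33 and 0.27 on this scale.

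**Figure D3:**
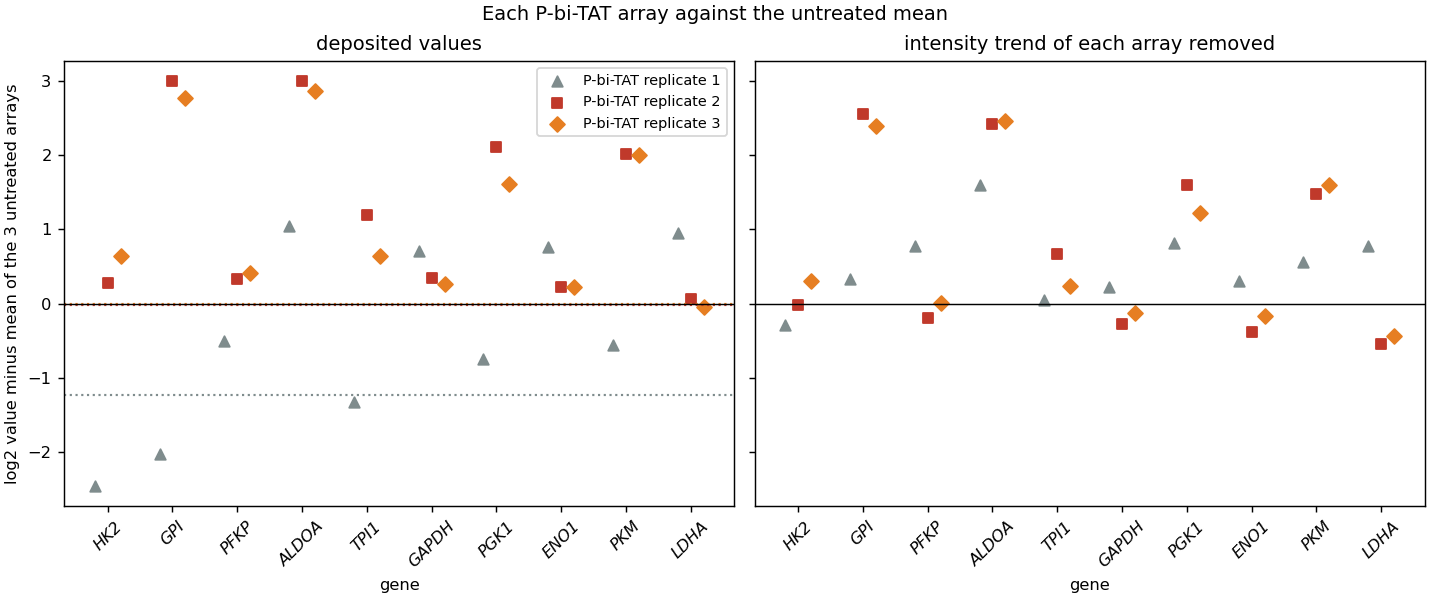
Each P-bi-TAT array minus the mean of the 3 untreated arrays (y axis, log2) for the 10 enzymes (x axis, pathway order), as deposited on the left and with each array's intensity trend removed on the right; dotted lines mark the median of all genes. ALDOA, GPI, PGK1, PKM and TPI1 are above 0 in all 3 replicates on the right (0.05 to 2.56), whereas LDHA ranges from −0.54 to 0.78.

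The genes also differed in how they varied over the 6 arrays. GAPDH and ENO1 followed each other (Pearson's r = 0.981 over 6 arrays), and GPI followed PKM (r = 0.973) and PGK1 (r = 0.944), while HK2 and LDHA ran opposite ways (r = −0.965). These arrays share the shift of replicate 1, so the coefficients are descriptions. Outside the gene lists used here, the 5 genes whose values were most like the mean of the 10 enzymes were ZNF410 (r = 0.998), DNTTIP1 (r = 0.997), RAP1GDS1 (r = 0.996), POLR2C (r = 0.996) and PSMD8 (r = 0.995). Of 11885 genes compared, 185 had an r over 0.95.

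Isoform use was read from 19 measured genes, of 21 listed, that encode other enzymes of the same steps, 14 of them above the negative control level in both groups. Levels of different probe sets cannot be ranked against each other, so only the change of a pair between arrays is read. Of the 19, limma called 0 at an adjusted p under 0.05. At 1.5-fold and an unadjusted p under 0.05 it called 0 higher and 1 lower, LDHC, the lactate dehydrogenase of germ cells, with a difference of −1.29 (SE 0.46, limma adjusted p = 0.847), beside the 0.192% and 4.98% of all genes given above. Differences were above 0 for 5 and below 0 for 14, with a median of −0.28, where 21.3% of all genes were above 0. Without replicate 1 the direction of the median turned: 11 of the 19 were above 0, with a median of 0.18, where 49.3% of all genes were above 0. At the fold and unadjusted limits HK1 was then the 1 called higher, beside 9.26% of all genes, and LDHC (−1.21) the 1 called lower, beside 5.31%.

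HK1, the hexokinase of most tissues, read 10.56, 8.61 and 9.48 (log2) in untreated cells and 8.63, 11.77 and 11.24 after P-bi-TAT. Its replicates 2 and 3 were above all untreated arrays and replicate 1 was level with the lowest of them. The difference was 1.00 (SE 0.92) and 1.96 without replicate 1. The within-array difference HK2 minus HK1 was −3.83, −2.27 and −3.17 in untreated cells and −4.63, −5.03 and −4.14 after P-bi-TAT. It was lower in every P-bi-TAT array than in any untreated one, replicate 1 included, by 1.51 on average (exact permutation p = 0.1, adjusted over the 6 pairs 0.3), and kept its sign in all alternatives run, from −1.88 to −1.10.

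ALDOC, the brain aldolase, read 5.72, 3.58 and 4.86 in untreated cells and 4.09, 5.10 and 5.69 after P-bi-TAT, values that overlapped throughout. ALDOA minus ALDOC was 9.96, 11.60 and 10.08 in untreated cells and 12.22, 13.16 and 12.43 after P-bi-TAT, again with no overlap (change 2.06, exact permutation p = 0.1, adjusted over the pairs 0.3). With quantile normalization and with the trend removed the change was 1.38 and 1.45 and the groups overlapped (exact permutation p = 0.2 each). ALDOC was also close to the negative controls, below their level of 3.81 in untreated replicate 2. The other 4 pairs overlapped between the groups. PFKP changed by 0.69 relative to PFKM, the muscle phosphofructokinase (exact permutation p = 0.2, adjusted 0.4), and by 0.32 relative to PFKL, the liver form (exact permutation p = 0.6, adjusted 0.72). ENO1 changed by 0.37 relative to ENO2, the neuronal enolase (exact permutation p = 0.6, adjusted 0.72), and LDHA by 0.29 relative to LDHB, the subunit typical of heart (exact permutation p = 0.9, adjusted 0.9). With 3 arrays a group none of these pairs could go below an exact p of 0.1. The share of pairs of other genes without overlap was not computed.

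**Figure D4:**
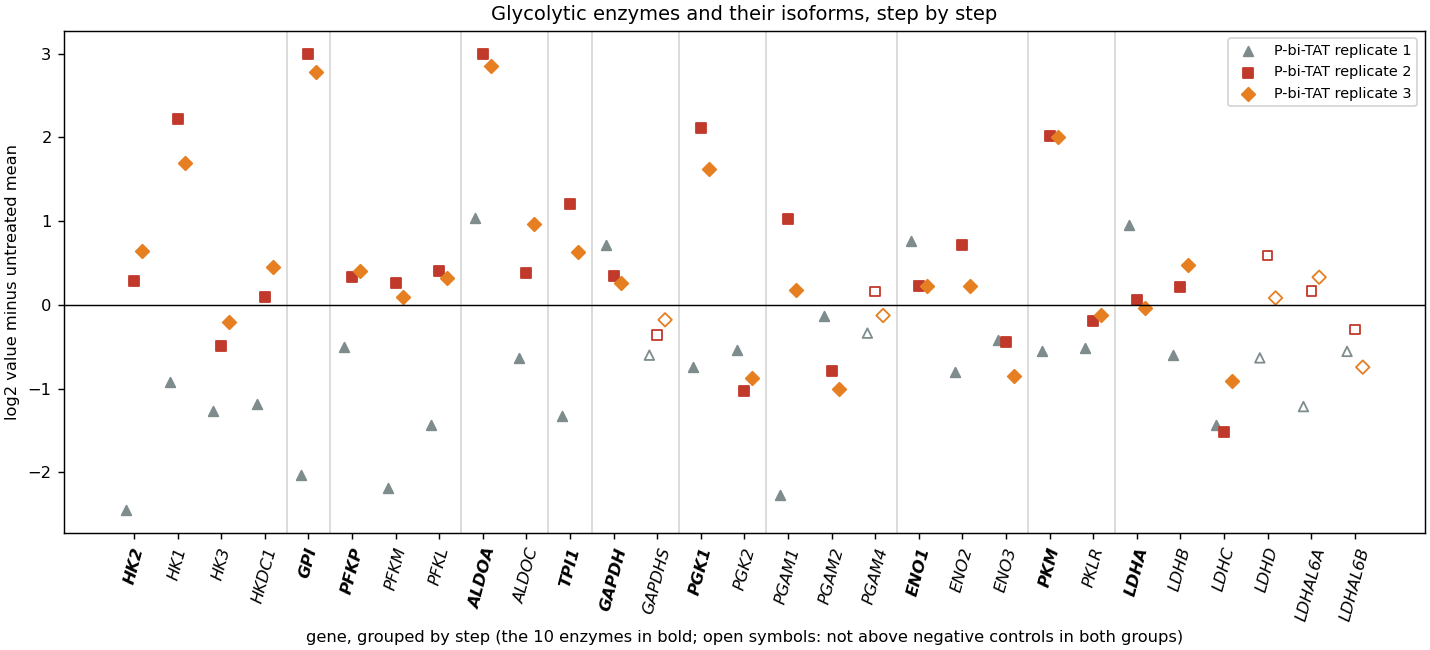
Each P-bi-TAT array minus the mean of the 3 untreated arrays (y axis, log2) for the 10 enzymes (bold) and their measured isoforms, grouped by step (x axis), with open symbols for genes not above the negative controls in both groups. At the hexokinase step HK1 lies above HK2 in every replicate, and at the aldolase step ALDOA lies above 0 in all 3 replicates (1.04 to 3.00) while ALDOC lies on both sides.

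PGAM1, the phosphoglycerate mutase between PGK1 and enolase, is the step without a gene among the 10. It read 13.74, 13.69 and 13.29 (log2) in untreated cells and 11.30, 14.60 and 13.75 after P-bi-TAT. Replicate 2 was above the untreated arrays, replicate 3 level with them and replicate 1 below. The difference was −0.36 (SE 0.84), or 0.60 without replicate 1.

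The neighbouring parts of glucose metabolism were read as lists. Over all genes, 21.3% of the differences were above 0 with all arrays (median −0.43) and 49.3% without replicate 1 (median −0.01), and the lists are read beside these. Glucose and lactate transporters, 12 of 14 measured, were below 0 for 11 and above 0 for 1, with a median of −0.60, and none was called. Without replicate 1 it was −0.56 and 4 were above 0. Over the 8 transporters above the negative controls in both groups the median was −0.70 with and without replicate 1. The negative control level itself was lower after P-bi-TAT (3.23 against 3.81), and its part in these medians was not tested. SLC2A1, the main glucose carrier of many tumors, and SLC2A3, the neuronal carrier, had the highest differences of these 8, −0.48 and −0.34. Their direction turned without replicate 1, to 0.74 and 0.46, and both were above each untreated array in replicates 2 and 3. SLC2A6 (−1.61, or −0.68 without replicate 1) and SLC16A7, a monocarboxylate carrier (−1.42, or −0.72), were the lowest. A further list joined the enzymes that set fructose 2,6-bisphosphate, the activator of phosphofructokinase, with genes listed as sensors, ARRDC4 among them. Of its 9 measured genes, 3 were above 0 and 6 below (median −0.43, and 0.09 without replicate 1). Among the 6 above the negative controls, the kinase PFKFB3 (0.50) and the phosphatase TIGAR (0.12) were highest. Without replicate 1 they were at 1.46 and 1.62 and were called higher at the fold and unadjusted limits. They were 2 of the 9 measured, beside 9.26% of all genes. PFKFB2 (−1.03, or −0.50 without replicate 1) and ARRDC4 (−0.93, or 0.50) were lowest.

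The pyruvate dehydrogenase complex acts on pyruvate inside mitochondria. The list of its genes, its regulators and the mitochondrial pyruvate carrier had 13 of 14 genes measured. Of these, 3 were above 0 and 10 below (median −0.42, and 0.25 without replicate 1). PDK2, a kinase that switches the complex off, was highest (0.84). Without replicate 1 (2.30) it was the 1 of the 13 called higher at the fold and unadjusted limits, beside 9.26% of all genes. MPC1, a mitochondrial pyruvate carrier subunit, was lowest (−1.26, or −0.03 without replicate 1). The pentose phosphate pathway, which branches off at glucose 6-phosphate, had 8 of 9 measured, 4 above 0 and 4 below (median −0.27, and 0.58 without replicate 1). TALDO1, transaldolase, differed by 1.09, or 2.39 without replicate 1, and PGD, which makes NADPH, by 0.52, or 1.29. Without replicate 1 these and PGLS, named after its values were seen, were called higher at the fold and unadjusted limits. They were 3 of the 8 measured, beside 9.26% of all genes. RPIA (−1.25, or −0.25 without replicate 1) and TKTL1 (−1.02, or −0.50) were lowest in that list.

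Gluconeogenesis, the reverse route, had 8 of 8 measured, 4 of them above the negative controls, with 1 above 0 and 7 below (median −0.47, and −0.17 without replicate 1). G6PC3 was at 0.04, or 0.94 without replicate 1. There it was the 1 of the 8 called higher at the fold and unadjusted limits, beside 9.26% of all genes. PCK1, the cytosolic phosphoenolpyruvate carboxykinase, was at −0.94, or −0.21 without replicate 1. The glycogen and glycerol branches had 14 of 14 measured, 1 above 0 and 13 below (median −0.51), from BPGM at −1.36 to GPD2 at 0.14. Without replicate 1, 8 of the 14 were above 0 (median 0.08), with BPGM at −0.43 and GPD2 at 1.18. Common reference genes, GAPDH among them and 9 of 12 measured, had a median of −0.05, or 0.32 without replicate 1, with PPIA (0.62) and ACTB (0.51) highest and SDHA (−0.82, or 0.04 without replicate 1) and GUSB (−0.77, or −0.53) lowest. Without replicate 1, ACTB, the cytoskeletal actin, was 2.24 higher and PPIA 1.10 higher. Both, 2 of the 9 measured, were past the fold and unadjusted limits, beside 9.26% of all genes called higher. The value for ACTB was then above those of PKM (2.01) and PGK1 (1.87), so differences of that size were not limited to glycolytic enzymes. None of these lists had a gene called at an adjusted p under 0.05, beside 0.0% of all genes in each direction. Over all arrays none had a gene called at 1.5-fold and an unadjusted p under 0.05, beside 0.192% of all genes called higher and 4.98% lower.

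**Figure D5:**
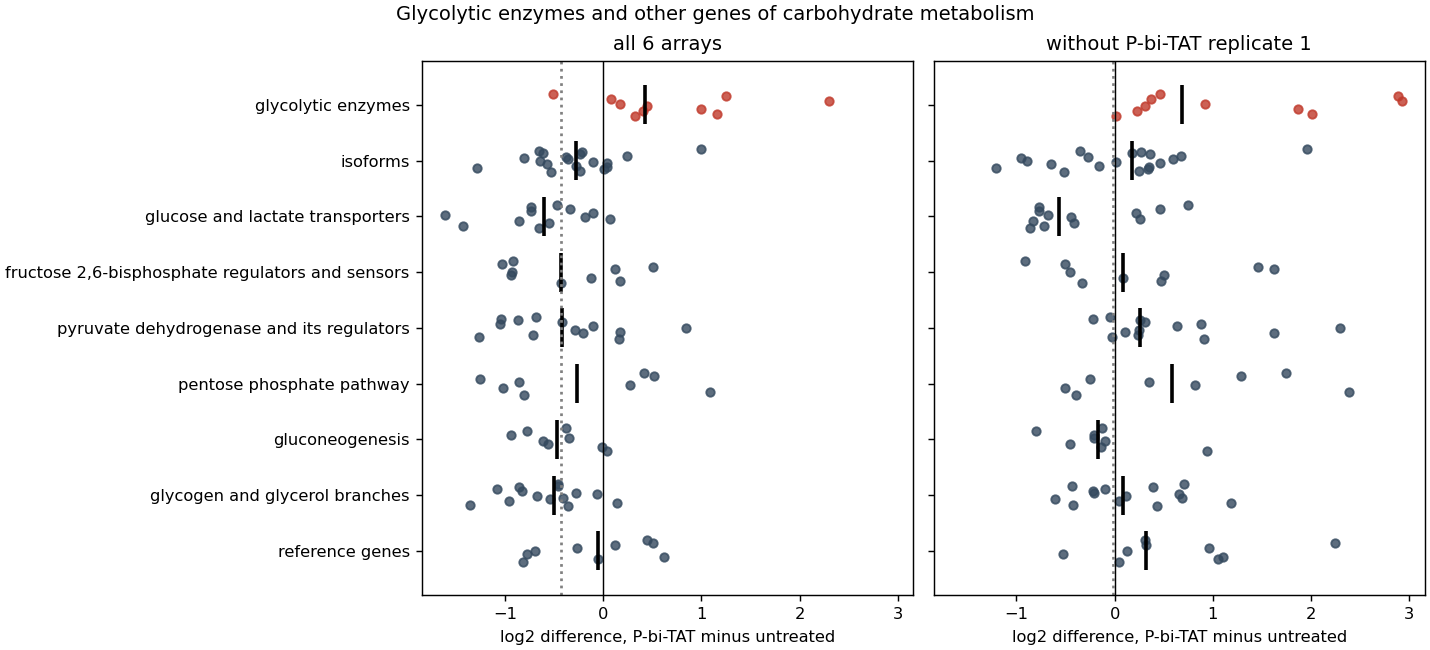
Log2 difference, P-bi-TAT minus untreated (x axis), of each measured gene of the glycolytic enzymes and the other lists (y axis), with all 6 arrays on the left and P-bi-TAT replicate 1 left out on the right, with the medians as bars. The 10 enzymes have medians of 0.42 and 0.69 and the transporters of −0.60 and −0.56.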

How the data were processed

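RNA was measured on Clariom S arrays, which read each gene through a probe set of short oligonucleotides, with 3 arrays per group. The authors deposited 1 log2 value per probe set and array. Per the submitters' processing notes these came from Transcriptome Analysis Console 4.0.1.36 and RMA. The study's methods give SST-RMA with a different console version, and the sources do not settle between them. The 2903 control probe sets were left out. Symbols came from the array annotation, which listed 1 symbol for 17709 of the 21448 gene probe sets. The values were used as deposited, and the groups were compared by lmFit and eBayes of limma 3.58.1 (R 4.3.3). P-values were adjusted by Benjamini-Hochberg over all gene probe sets. The script was tested on simulated data. Isoform pairs were compared by a two-sided exact permutation test. A gene was called not above the negative controls in a group where its mean did not exceed 3.81 (untreated) or 3.23 (P-bi-TAT), the averaged medians of the negative control probe sets. The number of arrays limits the precision. Other scalings, tests, filters and left-out arrays were run as alternatives.

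The 10 enzymes, the gene lists and the tests were chosen with earlier results of these data known. All 10 enzymes were named in full, with the 5 genes outside the lists closest to the mean of the 10 enzymes. From each other list up to 2 of the highest and up to 2 of the lowest differences were named, among genes above the negative controls. For pyruvate dehydrogenase, gluconeogenesis and the glycogen and glycerol branches, only the gene at each end was named. HK1, PGAM1, LDHC and the paired isoforms were named for their step. Promoter sequences are from RefSeq, build GRCh38.p14.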

Additional observations from a re-analysis of the deposited data

How the results depend on the processing

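The differences of ALDOA, GPI, PGK1 and PKM stayed above 0 under all alternatives run. The number of the 10 enzymes called higher at an adjusted p under 0.05 was 0, and 1 (ALDOA) with array weights. At 1.5-fold and an unadjusted p under 0.05 the number called higher was 1, beside 34 of all 17687 genes. It was 1 to 4 with each array left out in turn. The 4 came from leaving out P-bi-TAT replicate 1, beside 1638 genes, and the other arrays gave 1, beside 7 to 34 genes. It was 4 with quantile normalization, beside 675 genes, and with the intensity trend removed, beside 765. Without that replicate these scalings again gave 4, beside 992 and 1144 genes. It was 3 with median centring (ALDOA, PGK1 and PKM), beside 381 genes, and 5 with array weights, which add TPI1, beside 1928. None was called lower under any alternative run, beside 220 (median centring) to 1694 (array weights) of all genes. The median over the 10 enzymes was 0.42, and 0.24 to 0.93 over the scalings and 0.41 to 0.69 with each array left out in turn. Where the direction turned, the cause was not tested.

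With each array left out in turn, HK2 (−0.51 with all arrays) ranged from −1.08 to 0.46, PFKP from −0.085 to 0.37, TPI1 from −0.35 to 0.92, ENO1 minus ENO2 from −0.24 to 0.85 and LDHA minus LDHB from −0.34 to 0.70. With array weights HK2 was at 0.47. Quantile normalization gave GAPDH −0.0084, LDHA −0.32, PFKP minus PFKL −0.27 and ENO1 minus ENO2 −0.60. Removal of the intensity trend gave GAPDH −0.059, ENO1 −0.085, LDHA −0.065, PFKP minus PFKL −0.14 and ENO1 minus ENO2 −0.63. Quantile normalization without P-bi-TAT replicate 1 gave HK2 0.085, PFKP −0.11, LDHA −0.38, PFKP minus PFKL −0.093, ENO1 minus ENO2 −0.13 and LDHA minus LDHB −0.16. Removal of the trend without that replicate gave HK2 0.14, PFKP −0.077, GAPDH −0.19, ENO1 −0.27, LDHA −0.48, PFKP minus PFKL −0.072, ENO1 minus ENO2 −0.47 and LDHA minus LDHB −0.35.

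Both groups share replicate numbers 1 to 3, but same-numbered arrays deviated together with r = 0.30, 0.04 and 0.33, so the numbers were not read as pairs. With the replicate number as a block, ALDOA was again the 1 enzyme called at 1.5-fold and an unadjusted p under 0.05 (limma adjusted p = 0.847), and 30 genes were called higher and 765 lower, against 34 and 880 without it.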
